A study of Homo sapiens with 12 samples.

Results

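The drift of untreated leukemia cells was read from the 6 control arrays of a series of 12, as the 3 arrays taken after 24 h of culture minus the 3 taken after 6 h. The cells were CCRF-CEM-C7H2, a subclone of the CCRF-CEM line of T-cell acute lymphoblastic leukemia (T-ALL) that is sensitive to glucocorticoids, and the control cells of both times had received 0.1% ethanol and no dexamethasone. The other 6 arrays held the same cells with 100 nM dexamethasone, a synthetic glucocorticoid dissolved in that ethanol, and they entered here only as a shared estimate of the spread and as values set beside those of the controls. Each group held 3 independent experiments, numbered 0, 1 and 3 at 6 h and 1, 2 and 3 at 24 h, so the times share only 2 experiment numbers. All cells were of 1 clonal line, and the p-values measure the spread among its experiments. The array names carry 1 code for the ethanol arrays of 6 h and another for all arrays of 24 h, so that 18 h of further culture and that code cannot be told apart in any value given here.

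Levels are log2 values per probe set of Affymetrix HG-U133 Plus 2.0 arrays, and a difference of 1 is a doubling. The array reads the relative amounts of messenger RNA through short probes. A cultured lymphoblast line divides continuously, and between feedings its medium loses nutrients and gains metabolites. Sterol synthesis is set by a feedback in which the endoplasmic reticulum proteins INSIG1 and SCAP hold or release the SREBP transcription factors according to the cell's cholesterol. Metallothioneins are small cysteine-rich proteins that bind zinc and copper, and their genes are switched on by the zinc-sensing factor MTF1 through metal response elements. Neither process was measured other than through its transcripts.

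Of the 54675 probe sets on the array, 23265 were tested, those at 4 (log2) or more on 3 or more of the 12 arrays. They stood for 9947 genes, each represented by its tested probe set with the highest mean. Levels below 4 on every array of a group are called background. Between 22503 and 22649 probe sets reached 4 on each ethanol array (41.2 to 41.5%), and the 6 arrays correlated pairwise at Pearson's r between 0.988 and 0.996 over probe sets. With 3 arrays per group, the number of arrays limits the precision.

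The 6 h array of experiment 1 stood apart from the other arrays of its group. It correlated with the 24 h arrays at 0.993 to 0.994 and with its own group at 0.991 and 0.993, whereas those of experiments 0 and 3 reached 0.988 to 0.991 with the 24 h arrays. Its 18S ribosomal control, read at the 5′ probe set, was 12.05, against 14.95 and 15.03 on the other ethanol arrays of 6 h and 15.28 to 15.58 at 24 h. The dexamethasone array of the same experiment differed from that of experiment 3 in much the same genes as its ethanol partner did (r = 0.716 over genes, which are not independent replicates). The main counts are therefore also given without experiment 1 at 6 h in either treatment. That alternative was chosen after these arrays were seen to lie nearest to the 24 h arrays, so that it raises differences between the times by its choice, and its counts are no independent support. The probe sets of the ACTB message at its 3′ end exceeded those at its 5′ end by 0.886 to 0.898 on the 6 h arrays and by 0.946 to 1.12 on the 24 h arrays. This difference of 0.138 had p = 0.1 by a two-sided exact permutation test of 3 arrays against 3, the smallest that such a design allows. The part of these control values in the results was not tested.

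Few genes passed the test between the times in untreated cells. Limma called 113 of 23265 probe sets at a Benjamini-Hochberg adjusted p under 0.05 (0.486%), 66 higher and 47 lower at 24 h. Among genes the call held for 43 of 9947 (0.432%), with 20 higher (0.201%) and 23 lower (0.231%). The median gene differed by 0.00 and the median absolute difference was 0.12, beside median standard deviations within a group of 0.14 (6 h) and 0.11 (24 h). Of all genes 96.3% lay within 0.5 of no difference. In 25% the arrays of the 2 times did not overlap, and 15.9% had an unadjusted p under 0.05 by limma. Only 92 probe sets differed by over 1 and 9 by over 2, and all 9 of the latter were lower at 24 h and belonged to metallothionein genes.

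The number of calls rested on single ethanol arrays. Without experiment 0 at 6 h limma called 0 probe sets and 0 genes, with 2789 probe sets at an unadjusted p under 0.05 (3558 with all arrays). The genes called numbered 110 without experiment 1 and 6 without experiment 3 at 6 h. At 24 h they numbered 2 without experiment 1, 1 without experiment 2 and 7 without experiment 3. With only the 6 ethanol arrays fitted 2 genes were called, 1 of them among the 43. Without experiment 1 at 6 h in both treatments, 312 genes were called (3.14%), 236 higher (2.37%) and 76 lower (0.764%). All 43 called genes kept their direction in each of the other settings in which they were tested. The same arrays chose these genes, and leaving out 1 array cannot reverse groups that do not overlap. Kept directions are therefore no independent support. Centring the arrays on their poly-A spike controls put the median gene at -0.14 and left 17 genes called, 3 higher and 14 lower, and median centring gave 12 higher and 24 lower.

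**Figure D1:**
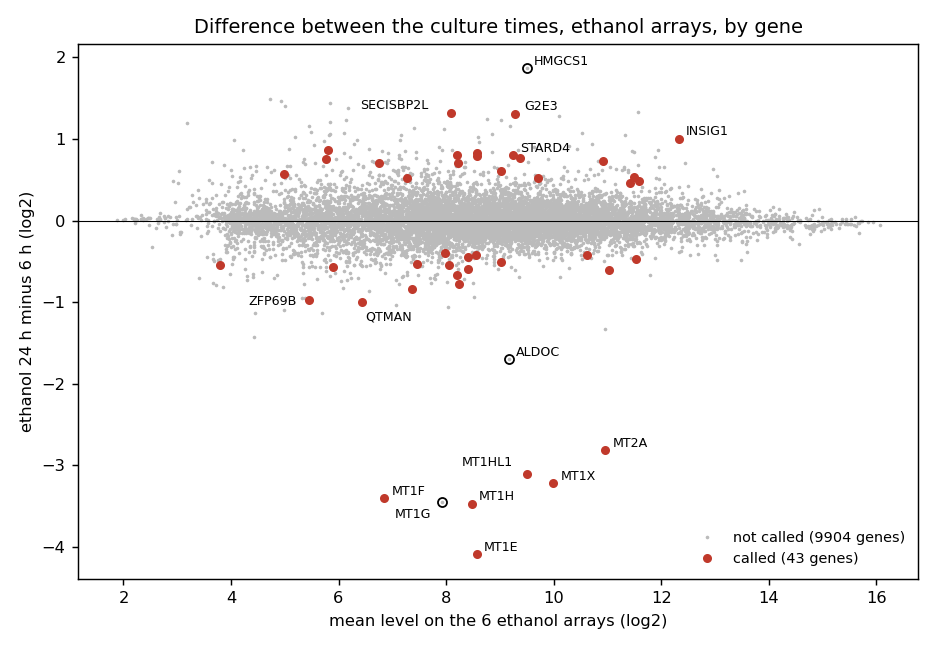
Mean log2 level of each of 9947 genes on the 6 ethanol arrays (horizontal) against its log2 difference, 24 h minus 6 h (vertical). Red points are the 43 called genes, open circles mark 3 named genes that were not called, and the metallothioneins lie alone between -2.82 and -4.09.

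The largest changes were falls of metallothionein genes. MT1E read 11.25, 9.34 and 11.25 in experiments 0, 1 and 3 at 6 h and 6.66, 6.44 and 6.46 in experiments 1, 2 and 3 at 24 h. All 3 later arrays thus lay well below all 3 earlier ones, with experiment 1 the lowest at 6 h. The fall was -4.09 ± 0.59 (standard error, n = 3 arrays per group; limma adjusted p = 0.0191), or 17.1-fold.

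MT2A, the most widely expressed human metallothionein, read 12.79, 11.43 and 12.89 at 6 h, compared with 9.15, 9.52 and 9.996 at 24 h. It fell by -2.82 ± 0.49 (limma adjusted p = 0.0385), a 7.04-fold change. MT1X went from 12.19, 10.63 and 11.99 to 8.11, 8.24 and 8.81 (-3.22 ± 0.49, limma adjusted p = 0.0229). Its second tested probe set gave -3.30. In both genes the groups did not overlap, and experiment 1 was again the lowest array of 6 h.

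MT1H fell by -3.47 ± 0.57, from 10.77, 9.07 and 10.80 to 6.46, 6.59 and 7.16. MT1F fell by -3.41 ± 0.54, from 9.12, 7.40 and 9.13 to 4.90, 4.90 and 5.64, which is near background. The gene MT1HL1, a relative of MT1H on chromosome 1, fell by -3.10 ± 0.47, from 11.60, 10.11 and 11.44 to 7.74, 7.67 and 8.44. Their adjusted p values by limma were 0.0281, 0.0259 and 0.0229. MT1G differed by -3.44 ± 0.69 without passing the test (limma adjusted p = 0.0625), with 10.34, 8.47 and 10.13 at 6 h, then 5.64, 6.28 and 6.69 at 24 h. MT1G passed with the experiment within a time as a random block, which pairs the ethanol and dexamethasone arrays of 1 experiment (limma adjusted p = 0.0412). The metallothionein genes other than MT1HL1 lie in 1 cluster on chromosome 16 and are nearly identical in sequence. Their probe sets are of the kind that can match several members, so the values are not independent of each other, and which members changed is uncertain.

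The metal handling list, which holds these genes of chromosome 16 with partners in metal transport, had 9 tested members. Of these 5 fell (0.231% of all genes) and none rose, with a median of -3.22 beside 0.00 over all genes. MTF1, the zinc-sensing activator of the family, read 8.11 on average at 6 h and 8.09 at 24 h (-0.02 ± 0.08). SLC30A1, which exports zinc from the cell and is likewise a target of MTF1, differed by -0.93 ± 0.58 with overlapping groups (limma adjusted p = 0.491). TFRC, the transferrin receptor of iron uptake, differed by -0.05 ± 0.07. Without experiment 1 at 6 h in both treatments, MT1E stood at -4.73 (limma adjusted p = 0.00135). MT1G passed the test there too, so that 6 of 9 fell (0.764% of all genes). That setting raises differences by its choice and is no independent support. Leaving out 1 ethanol array other than experiment 1 at 6 h took MT1E past the threshold, to a limma adjusted p between 0.0712 and 0.103, with values from -3.77 to -4.16.

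The dexamethasone arrays showed falls of like size in the same genes between the same times. MT1E differed there by -4.76, MT1X by -3.08 and MT2A by -3.02, all called by limma (adjusted p of 8.9e-05, 0.00044 and 0.00055). Of all genes 51.3% were called there. The test of the difference between the treatments did not pass for any of the 7 metallothionein genes (limma adjusted p from 0.62 to 0.92), against 27.1% of all genes. The standard errors of that difference ran from 0.67 (MT1HL1) to 0.97 (MT1G), so equal falls are not shown. With the experiment within a time as a fixed block the test did not pass for these 7 either, against 38.4% of all genes. It did pass for SLC30A1 (1.09 ± 0.18 higher with dexamethasone, limma adjusted p = 0.00534). At 6 h the dexamethasone arrays carry a code of their own, other than that of the ethanol arrays.

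**Figure D2:**
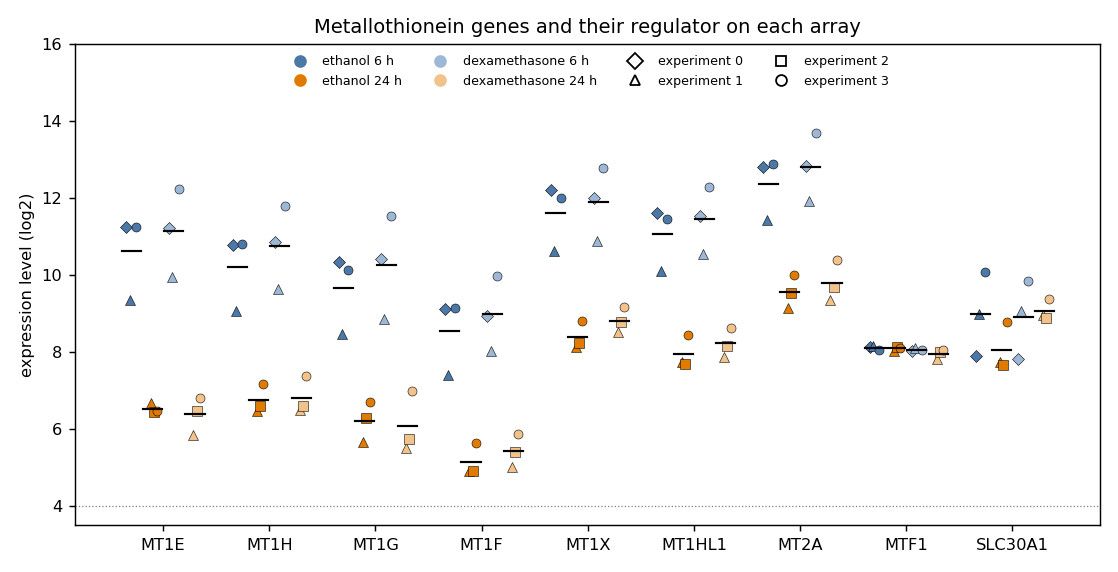
Log2 level of 7 metallothionein genes, MTF1 and SLC30A1 on each of the 12 arrays, by group (colour) and experiment (symbol), with bars at the group means and a dotted line at 4. In both treatments the 24 h arrays lie below all 6 h arrays for the 7 metallothioneins, and experiment 1 is the lowest of 6 h, while MTF1 stays near 8.

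Promoters are shown for the 3 of 9 metallothionein genes that matched the RefSeq table of promoter windows (GRCh38.p14), because these genes fell together. Each line gives the 250 bases before the start site, 5′ to 3′ on the gene's strand. Capitals mark matches of the core of the metal response element, TGCACNC or TGCGCNC, on either strand. MT2A lies at chr16:56608334-56608583 (+), MT1H at chr16:56669564-56669813 (+) and MT1X at chr16:56682220-56682469 (+).
MT2A: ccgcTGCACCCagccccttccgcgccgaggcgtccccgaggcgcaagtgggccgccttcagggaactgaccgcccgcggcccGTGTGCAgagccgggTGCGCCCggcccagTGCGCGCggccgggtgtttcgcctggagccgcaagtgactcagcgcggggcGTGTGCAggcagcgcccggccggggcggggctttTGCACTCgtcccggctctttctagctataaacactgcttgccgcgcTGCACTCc
MT1H: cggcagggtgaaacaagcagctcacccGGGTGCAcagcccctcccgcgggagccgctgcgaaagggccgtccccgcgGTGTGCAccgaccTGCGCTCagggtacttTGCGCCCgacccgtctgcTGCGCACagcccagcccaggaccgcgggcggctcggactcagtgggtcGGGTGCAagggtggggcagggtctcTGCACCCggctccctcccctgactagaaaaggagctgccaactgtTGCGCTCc
MT1X: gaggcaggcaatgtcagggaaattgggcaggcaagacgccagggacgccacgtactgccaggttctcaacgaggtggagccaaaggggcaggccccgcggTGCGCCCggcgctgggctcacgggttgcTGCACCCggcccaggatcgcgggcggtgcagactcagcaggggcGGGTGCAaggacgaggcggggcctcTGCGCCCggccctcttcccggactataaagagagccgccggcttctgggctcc
The MT2A window holds 7 matches, that of MT1H 8 and that of MT1X 4. Of 35114 RefSeq windows of the same length 24.83% hold at least 1 match and 0.3702% hold at least 4. The matches are letters in a window, and binding was not measured. The motif was chosen after these genes were seen to fall.

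The other falls were modest. QTMAN, which adds mannose to the queuosine base of transfer RNA, read 6.71, 6.93 and 7.16 at 6 h, against 5.70, 6.05 and 6.06 at 24 h. The groups did not overlap, and the fall was -0.9998 ± 0.16 (limma adjusted p = 0.024). PYM1, a factor that removes exon junction complexes from messenger RNA, fell by -0.84 ± 0.11, from 7.72, 7.98 and 7.68 to 7.04, 7.08 and 6.74. Its other tested probe set gave only -0.19. ZFP69B, a zinc finger gene, fell by -0.97 ± 0.17 (limma adjusted p = 0.0644 with the experiment within a time as a random block), and RHBDD2, of the rhomboid family, fell by -0.78 ± 0.12, with its second probe set at -0.80. Each of the remaining called genes fell by 0.67 or less. Chosen after their values were seen, these included SDF2L1, a chaperone cofactor of the endoplasmic reticulum (-0.61 ± 0.11), SPINT2, an inhibitor of serine proteases (-0.51 ± 0.08), and NELFCD, a subunit of the negative elongation factor (-0.47 ± 0.07). SPINT2 read 9.43, 9.21 and 9.21 at 6 h, compared with 8.77, 8.78 and 8.77 at 24 h. PAX9, a transcription factor of the paired box family, left 4.04 to 4.09 for background.

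Among the rises, SECISBP2L, a relative of the protein that reads selenocysteine signals, had the largest. It read 7.46, 7.62 and 7.19 at 6 h, then 8.65, 8.73 and 8.85 at 24 h (1.32 ± 0.18, limma adjusted p = 0.0177), though its other tested probe set differed by only 0.02. G2E3, a ubiquitin ligase named for its expression in the G2 and M phases, went from 8.36, 8.87 and 8.67 to 9.98, 9.89 and 9.96. That rise of 1.31 ± 0.16 (limma adjusted p = 0.0124) was shared in direction by all 4 other probe sets of the gene, at 0.41 to 0.74. TBCK, a protein with a kinase-like and a TBC domain, rose by 0.80 ± 0.07 and had the smallest adjusted p of any called gene, 0.0062 by limma. It read 8.22, 8.11 and 8.23 at 6 h, against 8.94, 8.94 and 9.07 at 24 h, and it stayed called in 11 of the 12 fits that left out 1 array.

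RAB33A, a Rab GTPase, rose by 0.83 ± 0.13, and BOD1L1, which protects stalled replication forks, by 0.81 ± 0.11. THRAP3, a splicing and transcription cofactor, rose by 0.77 ± 0.09. The other probe sets of BOD1L1 gave 0.04 and 0.14, and those of THRAP3 -0.01 and 0.17. Probe sets annotated to the small nucleolar RNA SNORA72 and to ATP13A3-DT, a divergent transcript, rose by 0.86 ± 0.12 and 0.76 ± 0.11. SNORA72 had the tightest groups of these, with 5.37 to 5.40 at 6 h, compared with 6.20 to 6.29 at 24 h. Over all called genes 21 had a single tested probe set. In the other 22, 31 of 36 further probe sets had the sign of the called one, and 5 genes had 1 that did not.

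Sterol genes were higher at 24 h in most members, but few passed the test. INSIG1, whose protein anchors SCAP and SREBP in the endoplasmic reticulum when sterols are plentiful, read 11.85, 11.99 and 11.63 at 6 h, then 13.03, 12.90 and 12.55 at 24 h. The groups were well apart, with a rise of 1.00 ± 0.14 (limma adjusted p = 0.0191), or 2.01-fold. Both of its other tested probe sets were called too, at 0.58 and 0.94. STARD4, which carries cholesterol between membranes, went from 8.81, 9.07 and 8.63 to 9.70, 9.66 and 9.55 (0.80 ± 0.12, limma adjusted p = 0.0215). On the poly-A spike scale both kept their direction at 0.86 and 0.65 but lost the call (adjusted p = 0.144 and 0.192 by limma).

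HMGCS1, the synthase that makes HMG-CoA at the start of the mevalonate pathway, showed the largest positive difference of any gene tested. It read 8.33, 9.44 and 7.92 at 6 h, against 10.76, 10.52 and 10.01 at 24 h. The groups did not overlap, experiment 1 was the highest array of 6 h, and the difference of 1.87 ± 0.40 did not pass the test (limma adjusted p = 0.073). Without experiment 1 at 6 h in both treatments it was 2.31 ± 0.25 and passed (limma adjusted p = 0.00378), as it did with the experiment within a time as a random block (1.87 ± 0.34, limma adjusted p = 0.0434). SQLE, the squalene epoxidase that commits squalene to sterols, read 9.87, 10.09 and 9.76 at 6 h, compared with 10.53, 10.47 and 10.35 at 24 h. Its difference of 0.55 ± 0.12 was smaller and as well separated, with a limma adjusted p of 0.0759 (0.64 and 0.0149 without experiment 1 at 6 h). These values are of the probe set with the highest mean, and another of its 4 tested probe sets did pass. That one read 7.57, 7.57 and 7.53 at 6 h, then 8.45, 8.41 and 8.26 at 24 h, a rise of 0.82 ± 0.13 (limma adjusted p = 0.0281). The others differed by 0.67 and 0.35 (limma adjusted p = 0.258 and 0.386).

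In the sterol synthesis list as a whole limma called 0 of 15 tested members (0.432% of all genes), and 10 had an unadjusted p under 0.05, against 15.9% of all genes. Differences lay above 0 in 14 of 15, against 50.6% of all genes, with a median of 0.51 beside 0.00. In 9 members the 24 h arrays lay wholly above those of 6 h (12% of all genes), and in 1, PMVK, wholly below (13%). MSMO1, a methylsterol oxidase, differed by 1.33 ± 0.26 (10.997, 11.14 and 10.56 against 12.48, 12.34 and 11.87; limma adjusted p = 0.0572, and 0.0349 with the experiment within a time as a random block). MVK, the mevalonate kinase, differed by 0.77 ± 0.28, IDI1, the isomerase of isopentenyl diphosphate, by 0.66 ± 0.15 and LSS, lanosterol synthase, by 0.61 ± 0.15. HSD17B7 and DHCR7, both of the later steps, differed by 0.51 each. The smallest differences were those of EBP (0.07), FDPS (0.12), ACAT2 (0.20) and PMVK, the phosphomevalonate kinase (-0.26 ± 0.09). Without experiment 1 at 6 h in both treatments 6 of the 15 rose (2.37% of all genes): HMGCS1, MSMO1, TM7SF2, LSS, IDI1 and SQLE. That setting raises differences by its choice and is no independent support. On the spike scale the median was 0.36 and 12 of 15 lay above 0. There 1 was called higher (0.0302% of all genes), HMGCS1 (1.72 ± 0.33, limma adjusted p = 0.0419).

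The 13 tested genes of sterol sensing, transport and efflux had 2 rises (0.201% of all genes), INSIG1 and STARD4, and no fall. Their median of 0.14 turned to -0.0068 on the spike scale. SREBF1, the gene of the factor that drives fatty acid synthesis, differed by 0.67 (limma adjusted p = 0.119), and SREBF2, that of sterol synthesis, by 0.24. The retention and cleavage machinery differed little, with SCAP at 0.14, INSIG2 at -0.02, MBTPS1 at -0.01 and MBTPS2 at 0.03. NPC2, a lysosomal cholesterol carrier, differed by -0.29 with groups that did not overlap, and NPC1 by 0.07.

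With dexamethasone some sterol genes rose over the same interval and others did not. HMGCS1 differed by 0.77 there and SQLE by 0.15, neither called, while MSMO1 (2.41), INSIG1 (1.24) and STARD4 (1.02) rose. For LSS, which fell with dexamethasone (-0.54), the difference between the treatments passed the test (limma adjusted p = 0.003), and for HMGCS1 and SQLE it did not (0.19 and 0.11). That test leaves out the pairing of arrays within a time. The difference passed for both with the experiment within a time as a fixed block, at -1.10 ± 0.11 for HMGCS1 and -0.40 ± 0.08 for SQLE (limma adjusted p = 0.00101 and 0.009). With that block it passed for 9 of the 15 sterol synthesis genes, against 38.4% of all genes. Without it 4 passed, near the share of all genes (27.1%). The block was added after the data were seen, and the 6 h arrays of the treatments carry different codes.

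**Figure D3:**
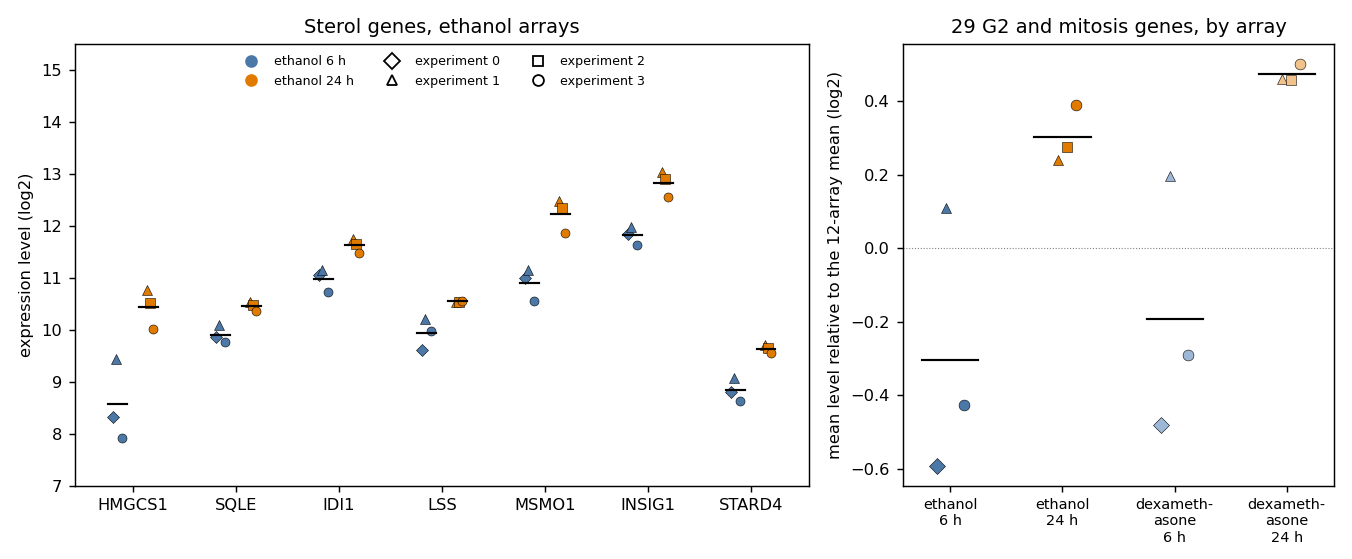
Left, log2 level of 7 sterol genes on the 6 ethanol arrays, by time (colour) and experiment (symbol), with bars at the group means. Right, mean log2 level of the 29 genes of the G2 and mitosis list on each of the 12 arrays. Values are relative to the list's mean over the 6 ethanol arrays, although the axis label names 12 arrays. Experiment 1 at 6 h reads 0.11 with ethanol and 0.20 with dexamethasone, nearer to the 24 h arrays than to the others of its time.

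The promoter windows of INSIG1, STARD4 and HMGCS1 are shown as those of the sterol genes that rose or that differed the most. Capitals mark CCAAT on either strand, the box of the factor NF-Y that acts beside SREBP, and the sterol element TCACNCCAC, which none of the 3 holds. INSIG1 lies at chr7:155297628-155297877 (+), STARD4 at chr5:111512536-111512785 (-) and HMGCS1 at chr5:43313413-43313662 (-), by RefSeq on GRCh38.p14.
INSIG1: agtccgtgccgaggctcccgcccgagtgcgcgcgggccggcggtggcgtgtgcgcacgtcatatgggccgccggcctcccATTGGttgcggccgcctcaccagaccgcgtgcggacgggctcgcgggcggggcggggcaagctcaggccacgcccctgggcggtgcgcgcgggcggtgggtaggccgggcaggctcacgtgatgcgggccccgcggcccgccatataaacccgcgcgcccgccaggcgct
STARD4: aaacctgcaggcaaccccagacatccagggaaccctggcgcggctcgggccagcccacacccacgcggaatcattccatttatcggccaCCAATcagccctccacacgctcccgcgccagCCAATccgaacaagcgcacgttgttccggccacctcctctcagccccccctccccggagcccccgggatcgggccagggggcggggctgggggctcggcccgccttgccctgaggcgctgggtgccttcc
HMGCS1: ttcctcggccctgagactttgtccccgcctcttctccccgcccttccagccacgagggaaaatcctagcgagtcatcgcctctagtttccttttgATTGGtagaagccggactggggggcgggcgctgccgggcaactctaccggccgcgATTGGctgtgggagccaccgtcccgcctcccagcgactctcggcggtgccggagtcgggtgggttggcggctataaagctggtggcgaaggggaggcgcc
INSIG1 holds 1 CCAAT box, and STARD4 and HMGCS1 hold 2 each. A second start site of HMGCS1 in the table has none. The 29 sterol genes in the table have 39 windows, of which 21 held CCAAT (53.8%, against 32.01% of all windows). The element TCACNCCAC was in 1 of them, of SREBF2, against 0.8828% of all windows. The INSIG1 window also holds 4 matches of the metal response element.

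Fatty acid synthesis was likewise higher at 24 h without a call. Limma called 0 of 11 tested members, with 4 at an unadjusted p under 0.05 (15.9% of all genes), and the median was 0.26. The members nearest to the threshold are named after their values were seen. FASN, the fatty acid synthase, read 7.92, 8.05 and 7.97 at 6 h, then 8.53, 8.55 and 8.51 at 24 h (0.55 ± 0.10, limma adjusted p = 0.0541). ACACA, the carboxylase that makes its substrate, read 9.13 on all 3 arrays of 6 h and 9.50, 9.60 and 9.52 at 24 h (0.41 ± 0.08, limma adjusted p = 0.0552). In both genes the arrays within a time were far closer than the times. SCD, the stearoyl-CoA desaturase, differed by 0.66 ± 0.20. With dexamethasone these 3 genes fell between the times (FASN -0.88, ACACA -0.39, SCD -0.77), and the difference between the treatments passed for each (limma adjusted p = 0.00011, 0.00063 and 0.0042). Over the list it passed for 6 of 11, against 27.1% of all genes. Of these 6 only LPIN1 went the other way (0.70 ± 0.12, limma adjusted p = 0.0024).

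Genes of G2 and mitosis were higher at 24 h in all 29 tested members, with a median of 0.55. Limma called 1 of them (0.201% of all genes higher), ECT2, the exchange factor that starts the contractile ring of dividing cells. ECT2 read 11.24, 11.29 and 11.13 at 6 h, against 11.77, 11.77 and 11.74 at 24 h (0.54 ± 0.08, limma adjusted p = 0.0177). In 22 members the groups did not overlap (12% of all genes higher), and 24 had an unadjusted p under 0.05 (15.9% of all genes). A larger share of cells in mitosis and more of these messages per cell cannot be told apart in bulk RNA.

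The members with the largest differences, named after their values were seen, had 6 h arrays that lay far apart and were not called. KIF20A, a kinesin of cytokinesis, read 8.87, 10.22 and 9.27 in experiments 0, 1 and 3 at 6 h and 10.71, 10.72 and 10.77 at 24 h (1.28 ± 0.35, limma adjusted p = 0.13). PLK1, the polo-like kinase of mitotic entry, read 7.21, 9.12 and 8.06 at 6 h, compared with 9.24, 9.31 and 9.58 at 24 h (1.24 ± 0.51). CENPE, a kinetochore motor, read 7.94, 9.17 and 8.14 and then 9.50, 9.69 and 9.74 (1.23 ± 0.34). CCNB1, cyclin B1, went from 10.99, 12.17 and 11.40 to 12.34, 12.24 and 12.55, so that experiment 1 at 6 h lay just under the lowest array of 24 h. In each of these genes experiment 1 stood near the 24 h arrays and experiments 0 and 3 below.

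Relative to its mean over the 6 ethanol arrays, the list read -0.59, 0.11 and -0.43 in experiments 0, 1 and 3 at 6 h. At 24 h it read 0.24, 0.28 and 0.39. The dexamethasone arrays had the same order at 6 h (-0.48, 0.20 and -0.29) and read 0.46, 0.46 and 0.50 at 24 h. Without experiment 1 at 6 h in both treatments limma called 24 of the 29 higher, against 2.37% of all genes. That experiment was left out for lying nearest to the 24 h arrays, as it does in this list. The count is raised by that choice and is no independent support. The test of the difference between the treatments passed for 0 of the 29 (27.1% of all genes). With the experiment within a time as a fixed block it passed for 2 of the 29 (38.4% of all genes), TTK (-0.41 ± 0.08) and CCNB2 (0.36 ± 0.10), with limma adjusted p of 0.00788 and 0.0324. Further called genes outside the list serve chromosome segregation, namely NCAPG, a condensin subunit (0.72 ± 0.13), and CENPI, a kinetochore protein (0.71 ± 0.13), both named after their values were seen.

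Genes of G1/S and replication lay nearer to the median of all genes, while histone genes and cell cycle inhibitors leaned higher without a call. Of 29 tested genes of G1/S and replication limma called 0, 2 had an unadjusted p under 0.05, 7 lay above 0 and the median was -0.07. In 5 the 24 h arrays lay wholly below those of 6 h (13% of all genes), and in 0 wholly above. MCM7, a subunit of the replicative helicase, differed by -0.43 ± 0.11 (12.85, 12.65 and 12.74 against 12.38, 12.31 and 12.27; limma adjusted p = 0.119). Among 10 histone genes the 24 h arrays lay wholly above those of 6 h in 6 (12% of all genes) and wholly below in 0. Limma called 0 of the 10, with 4 at an unadjusted p under 0.05 (15.9% of all genes) and a median of 0.31. The linker histones H1-2 and H1-4 had the smallest p of these, with 0.56 ± 0.11 and 1.16 ± 0.31. Of 7 cell cycle inhibitors and pocket proteins 6 lay above 0 (median 0.21) and limma called 0, with 4 at an unadjusted p under 0.05. In 4 the 24 h arrays lay wholly above those of 6 h, and in 0 wholly below. CDKN1A, CDKN1C, CDKN2A and CDKN2B were at background on all 6 ethanol arrays.

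MYC and ribosome biogenesis genes leaned the other way. Only 1 of 19 tested members lay above 0, the median was -0.22, and in 11 the groups did not overlap (13% of all genes lower). Limma called 0 of them, with 5 at an unadjusted p under 0.05 (15.9% of all genes). MYC itself read 13.33, 13.31 and 13.51 at 6 h, then 13.22, 13.11 and 13.21 at 24 h (-0.20 ± 0.10, limma adjusted p = 0.389). With dexamethasone limma called all 19 lower, against 2649 of all 9947 genes, with a median of -1.18.

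**Figure D4:**
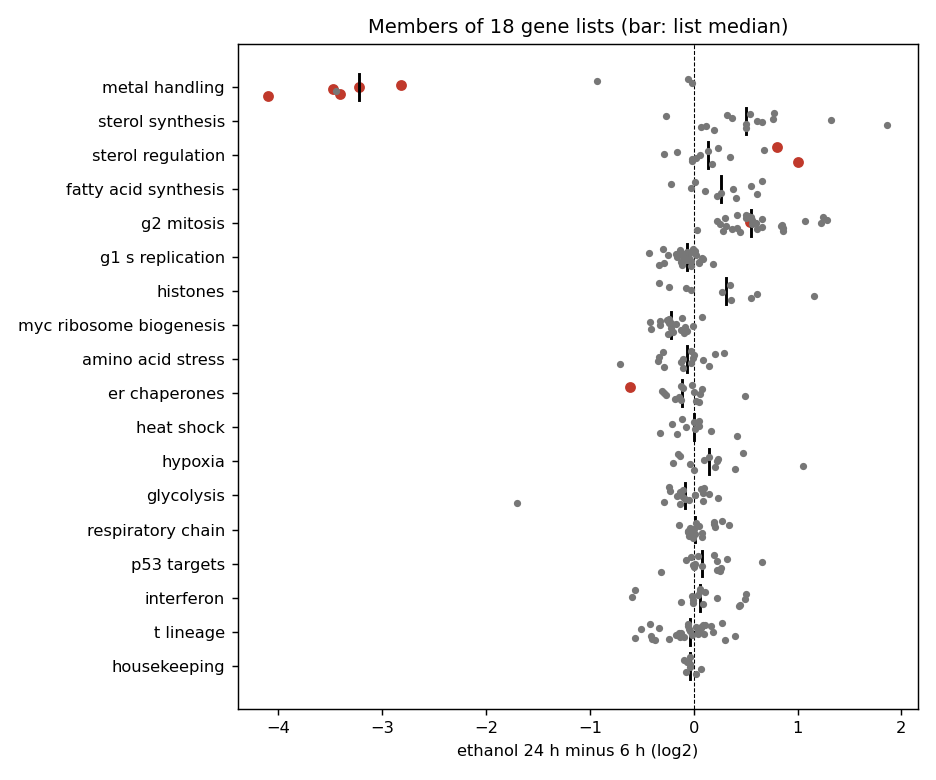
Log2 difference, ethanol 24 h minus 6 h, of each tested member of 18 gene lists, with a bar at the list's median and a dashed line at the median of all genes. Red points are called members: 5 of metal handling, 2 of sterol regulation, 1 each of G2 and mitosis and of the chaperones of the endoplasmic reticulum.

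Stress and nutrient responses gave a single call. The 16 tested genes of amino acid stress had a median of -0.07 and the 17 transfer RNA synthetases 0.12. Limma called 0 of them, with 1 and 4 at an unadjusted p under 0.05 (15.9% of all genes). Of 16 chaperones of the endoplasmic reticulum 1 fell (0.231% of all genes), SDF2L1. It read 11.52, 11.35 and 11.13 at 6 h, against 10.73, 10.69 and 10.75 at 24 h. HSPA5, the main chaperone of that compartment, differed by -0.29 ± 0.13. Heat shock genes (11 tested, median 0.00), hypoxia genes (13, 0.14) and the respiratory chain (20, 0.01) had no call by limma, with 3, 5 and 1 members at an unadjusted p under 0.05. Of 19 glycolysis genes limma called 0, with 4 at an unadjusted p under 0.05, and the median was -0.09. ALDOC, the aldolase C gene, stood out from its list after its values were seen, with 9.47, 9.96 and 10.63 at 6 h, compared with 8.46, 8.41 and 8.08 at 24 h (-1.70 ± 0.34, limma adjusted p = 0.0615). It was the largest negative difference outside the metallothioneins, and with dexamethasone ALDOC fell by 2.33. Limma called 0 members of 11 further lists, with between 0 and 5 members at an unadjusted p under 0.05 and medians from -0.13 (glucose sensing) to 0.09 (microRNA hosts). These were the p53 targets, BCL2 family, early response, interferon, clock, lysosome and autophagy, antioxidant, amino acid transport, glucose sensing, microRNA host and housekeeping genes. More members of these and other lists passed limma's test without experiment 1 at 6 h in both treatments, against 2.37% of all genes higher and 0.764% lower. That setting raises differences by its choice. Named after their values were seen, FASN, SESN2, CARS1, TARS1, EDEM1, BAG3, NDUFS1, RRM2B, BIK, BST2, IFI35, ATP6V1A, NEU1, CAT, CD38 and SGK1 then rose, by 0.45 (TARS1) to 0.88 (NEU1). SLC7A6, RSAD2 and TCF3 fell, at -0.51, -0.78 and -0.50, and SDF2L1 stayed called at -0.60.

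Targets of the glucocorticoid receptor were also read in these cells without the steroid. Of 21 tested targets 2 fell (0.231% of all genes), and the median was -0.06. The 2 were MT1X and MT2A, members of the metallothionein family described above. NR3C1, the receptor gene, differed by -0.06 ± 0.09 and FKBP5, its co-chaperone and target, by 0.09 ± 0.12. TSC22D3, the gene of the leucine zipper protein GILZ, was at background on all 6 ethanol arrays by the probe set that represents it. Its second tested probe set read 5.61, 4.54 and 3.96 at 6 h, against 5.15, 5.31 and 4.84 at 24 h, with overlapping groups (0.40 ± 0.33, limma adjusted p = 0.628). BCL2L11, the BH3-only death gene BIM, differed by -0.41 ± 0.12 without a call (8.64, 8.66 and 8.86 against 8.21, 8.34 and 8.38). CCND3, cyclin D3, differed by -0.02 ± 0.15.

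The baseline state of the line was read against markers of its labelled lineage. Of 37 measured genes of the T lineage 33 exceeded background on all 6 ethanol arrays. They included the CD3 chains CD3D (13.87 to 14.10), CD3E (10.99 to 11.11) and CD3G (10.55 to 10.83), the kinase LCK (12.77 to 12.93) and the surface proteins CD5 (7.29 to 7.58) and CD7 (9.25 to 9.70). The recombinase genes RAG1 (12.32 to 13.00) and RAG2 (9.30 to 9.46), the cortical thymocyte marker CD1A (9.31 to 9.89) and both coreceptors CD4 (9.02 to 9.61) and CD8A (4.49 to 5.44) were above it as well. PTCRA, the pre-T-cell receptor chain, was only just above, at 4.52 to 4.73. At background were CD2, CD28, RUNX3 and DNTT, which encodes terminal deoxynucleotidyl transferase. Of the T lineage genes limma called 0 of 33 between the times, with 9 at an unadjusted p under 0.05 (15.9% of all genes). Their median was -0.03.

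Of 20 measured T-ALL oncogenes and NOTCH pathway genes, 11 were above background on all 6 arrays. TAL1 (8.21 to 8.87), LYL1 (7.25 to 7.95) and LMO2 (8.55 to 9.02), partners in 1 transcription complex, were among them, but LMO1 was not. NKX2-5, a heart homeobox gene that translocations can switch on in T-ALL, read 10.55 to 11.06, and MEF2C 10.89 to 11.09. TLX1, TLX3 and NKX2-1, homeobox genes that mark other T-ALL classes, were at background. NOTCH1 (10.08 to 10.59) and its targets HES1 (9.98 to 10.65) and DTX1 (5.40 to 6.11) were above it, and NOTCH3, HES4 and NRARP were not. Limma called 0 of the 11 between the times, with 2 at an unadjusted p under 0.05.

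Markers of other cell types were mostly absent. All 13 myeloid markers were at background on all 6 arrays, SPI1, MPO and CD14 among them, as were 6 of 8 markers of natural killer and cytotoxic cells. NKG7 was above it (7.35 to 7.95) and PRF1 mixed. B cell markers MS4A1, PAX5, BLNK, CD22 and BLK were at background, EBF1 and VPREB1 were mixed, and CD79A (9.78 to 10.39), CD79B (6.66 to 7.32) and IGLL1 (13.64 to 14.21) were above it. Of 7 erythroid and platelet markers only EPOR exceeded background. Of 11 stromal and epithelial markers COL1A1, KRT8, EPCAM (10.53 to 11.19) and PECAM1 did. The log2 of each list's summed level moved little between the times. For myeloid markers it was 6.08 to 6.12 on the 6 h arrays and 6.07 to 6.14 on those of 24 h, and for B cell markers 13.77 to 14.29 and 14.01 to 14.16. Limma called 0 of the 13 tested members of these lists, with 0 at an unadjusted p under 0.05.

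**Figure D5:**
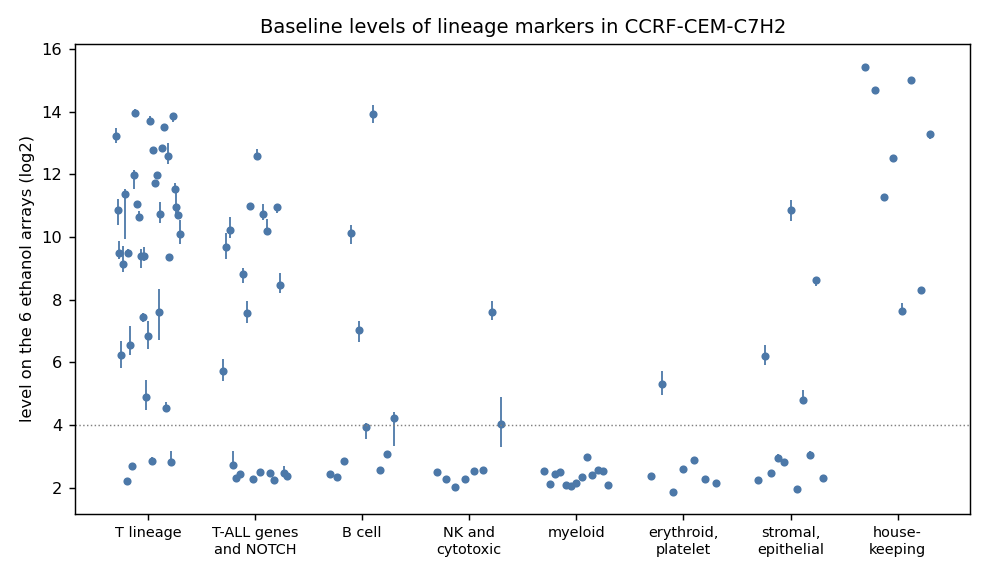
Median log2 level (points) and range (lines) over the 6 ethanol arrays of each measured marker gene in 8 lists, with a dotted line at 4, below which levels are background. The 13 myeloid markers all lie below the line, while 33 of 37 T lineage genes and all 8 housekeeping genes lie above it.

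The culture-time difference in ethanol was then set beside that in dexamethasone, which shares no array with it. Arrays of 1 experiment within a time pair across the treatments (deviations correlated at 0.24 to 0.63), so the 2 differences are not independent. Of the 43 genes called in ethanol, 37 had the same sign with dexamethasone, and 35 of these were called there too, where 51.3% of all genes were called. The difference between the treatments passed the test for 14 of the 43, near the share of all genes (27.1%), and 6 of the 14 had opposite signs. The ethanol difference that chose the 43 is part of that test. With the experiment within a time as a fixed block 14 passed as well (38.4% of all genes), with LRRC40, named after its value was seen, in place of ZFP69B. Across all 9947 genes the 2 sets of differences correlated at Pearson's r = 0.415 and Spearman's rho = 0.439, a description over genes, which are not independent replicates. The 24 h arrays of both treatments carry the same code and their 6 h arrays different ones.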

How the data were processed

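The authors deposited 1 table of log2 expression values per probe set for all 12 arrays, which by the submitters' processing notes were made with GCRMA and R 2.6. The method corrects background by probe sequence, normalizes quantiles and summarizes each probe set, and because quantiles are set equal, a shift of all messages at once cannot be seen. Its settings are not stated in the labels.

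Groups came from the sample titles. The 62 control probe sets were read separately. A group-means model of all 12 arrays (8 residual degrees of freedom) was fitted with limma 3.58.1 in R 4.3.3, with empirical Bayes moderation and Benjamini-Hochberg adjustment over 23265 probe sets. The tested contrasts were ethanol at 24 h minus 6 h, the same with dexamethasone, and their difference. Probe sets with several symbols or none (19 of the 113 called) were counted, not named. The fit was tested on simulated data of this contrast in 4 sizes. It recovered 19, 30, 50 and 49 of 50 at true differences of 0.5, 1, 2 and 3, with 8 false calls. The simulated noise was normal and independent between arrays, whereas the real arrays of 1 experiment are correlated. These figures may therefore not hold for the real data.

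Genes named are the 10 largest rises and falls past the test without overlap between the groups, HMGCS1, SQLE, the members of both sterol lists, up to 3 called members of each other list, 5 check genes and the marker lists. Others are marked in the text or in the closing section. The comparison, its 35 gene lists and the rule were chosen with earlier results of these data known. Alternatives covered the filter, scaling, experiment block, intensity trend, arrays fitted, probe set choice and each array left out.

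Experiment numbers were checked as pairs. Deviations of the ethanol arrays from their group means correlated between the times at 0.00 for experiment 1 and 0.38 for experiment 3. In the main fit arrays of the 2 times were taken to share only a number. Within a time, ethanol and dexamethasone arrays of 1 experiment correlated at 0.42, 0.63 and 0.61 (6 h) and at 0.29, 0.24 and 0.42 (24 h). The 0.38 of experiment 3 between the times lay above the 0.29 and 0.24 of experiments 1 and 2 within 24 h. Whether experiment 3 was shared by the times is therefore not settled. Arrays of 1 experiment within a time were taken as pairs. The main fit leaves these pairs out, so its residual degrees of freedom are not fully independent. The test of the difference between the treatments was therefore also run with the experiment within a time as a fixed block (4 residual degrees of freedom), an alternative added after the data were seen.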

Additional observations from a re-analysis of the deposited data

Results flagged for a closer look

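Among the 43 genes called between the times in ethanol, 14 passed limma's test of the difference between the treatments. That is near the share of all genes (27.1%), so the 43 are not set apart by it. The ethanol difference that chose them is part of the tested difference, which favours passing. The values that follow are the time difference with dexamethasone minus that with ethanol, on the log2 scale, and the adjusted p by limma runs from 0.000131 (AGAP6) to 0.0454 (RHBDD2). CYB5D1, SDF2L1, AGAP6, MPPE1, SPINT2, NELFCD, AAAS, RBM4, PTGR2 and RECK are named here because of these values.

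In 6 genes the sign was opposite in the 2 treatments. The dexamethasone values of MPPE1, ATP13A3-DT and PTGR2 were small, so a reversal is not shown for these. AGAP6, a gene of the ArfGAP family, fell by 0.56 with ethanol and rose by 0.61 with dexamethasone, a difference of 1.17 ± 0.13. SPINT2 fell by 0.51 and rose by 0.36 (0.87 ± 0.11). MPPE1, a phosphoesterase, fell by 0.54 with ethanol and differed by 0.08 with dexamethasone (0.62 ± 0.13). SNORA72 rose by 0.86 with ethanol and differed by -0.27 with dexamethasone (-1.14 ± 0.17). ATP13A3-DT rose by 0.76 with ethanol and differed by -0.10 (-0.86 ± 0.15), and PTGR2, a prostaglandin reductase, rose by 0.56 and differed by -0.11 (-0.67 ± 0.13).

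In 8 genes the direction was shared and the size was not. Falls were larger with dexamethasone for ZFP69B (-0.78 ± 0.25), CYB5D1 (-0.82 ± 0.13), SDF2L1 (-0.64 ± 0.15), NELFCD (-0.41 ± 0.10) and AAAS, a nuclear pore protein (-0.83 ± 0.11). The value of RHBDD2 was smaller with dexamethasone, by 0.52 ± 0.17. Rises were larger with dexamethasone for RECK, an inhibitor of matrix metalloproteinases (0.81 ± 0.18), and RBM4, a splicing regulator (0.56 ± 0.12). The 6 h arrays of the treatments carry different codes, so that treatment and code cannot be told apart in these differences. With the experiment within a time as a fixed block, ZFP69B no longer passed (limma adjusted p = 0.0504) and the other 13 did. With that block 38.4% of all genes passed.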

How the results depend on the processing

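The counts of calls depended on the model and on single arrays. Each of the 43 called genes had the same sign in every setting in which its representing probe set was tested, up to 23 per gene. The same arrays chose these genes, and leaving out 1 array cannot reverse groups that do not overlap. Their kept signs are therefore no independent support. Against 113 probe sets and 43 genes, limma called 190 and 85 with a filter at 6, 269 and 136 with an intensity trend, 36 and 17 on the poly-A spike scale, and 4 and 2 when only the 6 ethanol arrays were fitted. The last setting leaves fewer residual degrees of freedom, and its 4 probe sets carry the symbols WASL, PRRC2C, MEX3B and SNORA72, named after their values were seen. Of the 43 genes only SNORA72 stayed called there (limma adjusted p = 0.0408). By the same fit MT1E stood at a limma adjusted p of 0.0841, and MT2A and INSIG1 at 0.106. The mean of a gene's probe sets gave 73 genes, with 36 of the 43 among them and all 43 of the same sign. Of the called probe sets 58.4% were higher at 24 h, and 30.6% on the spike scale. Leaving out 1 array in turn gave between 0 and 267 probe sets and between 0 and 110 genes. None of the 43 genes was called in all 12 of these fits. Without experiment 1 at 6 h in both treatments, a setting added after the data were seen, the counts were 671 and 312. The median of the sterol regulation list was -0.0068 on the spike scale (0.14 as deposited), where each value is lowered by the spike controls' own difference of 0.15. In other cases the cause was not tested.

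With the experiment number as a block shared across the times, limma called 170 probe sets and 73 genes, and 69 of the 113 probe sets were among them. HMGCS1, SQLE, MSMO1, IDI1 and MT1G then passed (limma adjusted p = 0.0129, 0.0374, 0.0089, 0.024 and 0.0148). Of 15 sterol synthesis genes 4 were called higher (26.7%, against 0.292% of all genes). The median of the sterol regulation list was then 0.031. The times share only 2 numbers, so this pairing is a hint from the labels and no stated design. Ethanol arrays of the same number correlated at 0.00 (experiment 1) and 0.38 (experiment 3) after their group means were taken off. Whether experiment 3 was shared by the times is not settled by these values. With the experiment within a time as a random block, 115 probe sets and 50 genes were called. The difference between the treatments passed for 7882 probe sets with the experiment within a time as a fixed block and for 5380 without the block. Signal over background limits the 328 tested probe sets that lay below 4 on all 6 ethanol arrays. In simulated data of this contrast, with noise independent between arrays, the fit recovered 19 of 50 probe sets with a true difference of 0.5. Smaller changes may have been missed.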

Other observations

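Some genes outside the groups described differed between the times without a call, and are named after their values were seen. CD1D, which presents lipids to T cells, read 9.73, 9.34 and 9.39 at 6 h and 8.95, 8.88 and 8.93 at 24 h (-0.56 ± 0.14, limma adjusted p = 0.112). TXNIP, an arrestin-like protein that limits glucose uptake, differed by -0.47 ± 0.15 (limma adjusted p = 0.177) and rose by 1.13 with dexamethasone. CD38, an ectoenzyme of lymphocytes, differed by 0.40 ± 0.12 (limma adjusted p = 0.171). RRM2B, a p53-dependent subunit of ribonucleotide reductase, differed by 0.66 ± 0.16 (limma adjusted p = 0.102).

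CD1E, another CD1 gene of cortical thymocytes, varied with the experiment number more than with time. On the arrays of experiment 3 it read 10.10 at 6 h and 9.94 at 24 h with ethanol, and 9.47 and 10.05 with dexamethasone. The other 4 ethanol arrays read 11.28 to 11.55, and the other dexamethasone arrays 11.12 to 11.50. Its difference between the times in ethanol was -0.13 ± 0.62.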
